A study of Homo sapiens and Mus musculus with 21 samples.

Results

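The spliceosome cuts introns out of pre-mRNA and joins the exons, and it is put together anew on each intron from small nuclear ribonucleoproteins (snRNPs) and many further proteins. The U1 snRNP marks the 5′ splice site and the U2 snRNP the branch site. The U4/U6.U5 tri-snRNP then joins, and the Prp19 complex helps to build and hold the catalytic core. DHX15 is a DEAH-box RNA helicase known for taking spliceosomes apart.

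The genes were a list of 47 core spliceosome genes that leaves out the DEAH-box helicases. They were chosen by their known roles, but with earlier results of these data known. All 47 were among the 19848 genes of the hairpin table and, as mouse symbols, among the 28692 of both thymus matrices. Of the 23037 genes of the ciclopirox table, 46 were members, and DDX39B was not listed under that symbol. They were sorted into 3 U1 snRNP proteins, 7 Sm proteins, 14 U2 snRNP and branch site proteins, 6 U5 snRNP proteins, 7 U4/U6 and tri-snRNP proteins, 6 Prp19 complex and related proteins, and 4 proteins of the catalytic steps and of mRNA export.

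The human line CUTLL1, grown from a T-cell acute lymphoblastic leukemia, was infected with lentivirus carrying a hairpin against GFP (shGFP) or 1 of 2 hairpins against DHX15 (shDHX15-1 and shDHX15-2), with 3 RNA-seq libraries each. In a separate experiment the line received the solvent DMSO or 5 µM of the antifungal iron chelator ciclopirox, again with 3 libraries each. Immunoprecipitation of RNA with a DHX15 antibody (2 libraries, beside 1 with IgG and 1 input) was summarised by the authors as 1 peak list. Thymocytes of mice 6 weeks old gave 1 single-cell library from floxed animals (Dhx15 flox) and 1 from Dhx15 KO animals. The sources used here do not give the Cre driver, how many animals made up a library, or how long after infection or treatment cells were taken. Nor do the labels say whether libraries of a group are separate cultures, and p-values therefore cover only the spread among these libraries, possibly a technical one.

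Depth was even within the hairpin experiment, at 59702150 to 62633707 reads per library, and lay between 32451469 and 37177509 reads in the ciclopirox experiment. DHX15 itself checked the labels: its level was 42.8, 44.1 and 43.2 RPKM (reads scaled to gene length and library size) with shGFP, 17.1, 17.3 and 16.5 with shDHX15-1 and 16.1, 16.5 and 16.8 with shDHX15-2. The 7 T lineage markers summed to 772 to 807 RPKM with shGFP, 882 to 888 with shDHX15-1 and 960 to 982 with shDHX15-2, without overlap. For the hairpin mean 4 of these rose and 2 fell, with CD7 at 1.08 and CD3E at 0.55 log2, and CD3G at −0.26 and LCK at −0.145. CD2 was called in opposite directions, at −0.21 log2 with shDHX15-1 and 0.32 with shDHX15-2. The 1 of 4 myeloid markers listed reached at most 0.0159 RPKM, and the 3 epithelial and 3 fibroblast markers were not listed in that table. The 1 listed B cell marker, CD79A, summed to 23.6 to 24.8 RPKM with shGFP, 33.6 to 35.5 with shDHX15-1 and 57.9 to 59.6 with shDHX15-2, and the part of either marker list in the results below was not tested. With ciclopirox the T lineage markers summed to 85248 to 94832 normalised counts, against 105346 to 122112 with DMSO, and the B cell markers to 1265 to 1641 against 964 to 1273. The 3 of 4 myeloid markers listed there summed to 150 to 181 with ciclopirox and 108 to 205 with DMSO. Of these ITGAM was called higher (2.62 log2, limma adjusted p = 0.0194) and CSF1R was not called. The epithelial markers summed to at most 9.46 and the fibroblast markers to at most 14.3. The part of these lists was not tested either. In the ciclopirox experiment DMSO replicate 1 stood apart: of 45 members tested, 34 had their highest and 11 their lowest DMSO value in it. The main ciclopirox results are therefore also given without it. In a bulk library a change in the make-up of the culture and a change of RNA per cell cannot be told apart.

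Sequence just before the transcription start was looked at because the members are genes that most cells use and many of them fell in the same experiments. RefSeq promoter windows (GRCh38.p14, 250 bases before to 50 bases after the start) were found for 43 of the 47 members. The ETS-type motif CCGGAAG, searched on both strands (CTTCCGG on the other), was present in 25 of the 43 windows (58.1%), against 21.3% of 8745 windows of genes tested in the hairpin experiment and 10.7% of all 27305 windows. By role it was in 1 of 3 U1, 4 of 6 Sm, 10 of 13 U2 and branch site, 2 of 6 U5, 2 of 5 tri-snRNP, 3 of 6 Prp19 and 3 of 4 catalytic step and export windows. The windows of genes that fell with both hairpins held it in 16 of 27 cases, and those of the other members in 9 of 16. The GC box GGGCGG, like the others searched on both strands, was in 62.8% of member windows against 70.2% of the windows of tested genes, the CCAAT box (on either strand) in 32.6% against 37.5%, the NRF1-type motif in 16.3% against 13%, and the E-box CACGTG in 6.98% against 10.5%. A match describes letters in a window and is no evidence of a bound factor. The last 100 bases before the start are shown for all 6 Sm genes with a window and 4 members with large changes, from RefSeq GRCh38.p14, 5′ to 3′ on the strand of the gene, with matches to any of these 5 motifs in capitals.
SNRPB (chr20:2470790-2470889, minus strand): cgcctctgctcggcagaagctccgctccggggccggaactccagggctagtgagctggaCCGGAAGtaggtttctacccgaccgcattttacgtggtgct
SNRPD2 (chr19:45692317-45692416, minus strand): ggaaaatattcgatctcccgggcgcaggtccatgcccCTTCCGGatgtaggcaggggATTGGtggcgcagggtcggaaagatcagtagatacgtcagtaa
SNRPD3 (chr22:24555550-24555649, plus strand): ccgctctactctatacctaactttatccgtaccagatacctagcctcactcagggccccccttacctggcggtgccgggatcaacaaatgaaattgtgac
SNRPE (chr1:203861747-203861846, plus strand): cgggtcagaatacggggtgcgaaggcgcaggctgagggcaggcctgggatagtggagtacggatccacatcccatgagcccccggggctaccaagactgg
SNRPF (chr12:95858852-95858951, plus strand): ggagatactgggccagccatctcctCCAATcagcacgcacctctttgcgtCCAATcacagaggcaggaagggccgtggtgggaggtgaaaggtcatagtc
SNRPG (chr2:70293459-70293558, minus strand): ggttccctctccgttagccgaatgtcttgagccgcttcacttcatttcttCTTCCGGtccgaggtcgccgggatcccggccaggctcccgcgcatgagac
DDX46 (chr5:134758679-134758778, plus strand): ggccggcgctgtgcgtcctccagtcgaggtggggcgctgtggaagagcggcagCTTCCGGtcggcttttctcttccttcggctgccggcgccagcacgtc
DDX42 (chr17:63774070-63774169, plus strand): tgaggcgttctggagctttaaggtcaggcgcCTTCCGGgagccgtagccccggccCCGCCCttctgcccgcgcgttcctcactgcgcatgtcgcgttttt
U2AF2 (chr19:55654935-55655034, plus strand): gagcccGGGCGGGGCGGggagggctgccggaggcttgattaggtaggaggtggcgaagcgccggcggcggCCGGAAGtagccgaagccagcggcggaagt
EFTUD2 (chr17:44899446-44899545, minus strand): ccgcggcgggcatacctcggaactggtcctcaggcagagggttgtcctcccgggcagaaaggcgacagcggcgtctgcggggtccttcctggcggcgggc
SNRPB, SNRPD2, SNRPG, DDX46, DDX42 and U2AF2 show the ETS-type motif in these bases, and SNRPD3, SNRPE and SNRPF do not. SNRPE has it elsewhere in its window. EFTUD2, with the largest fall for the mean of both hairpins, shows none of the 5 motifs in these bases. Elsewhere in its window it has the E-box and the GC box.

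In CUTLL1 with shGFP the members had a median level of 32.6 RPKM, against 6.72 RPKM over the 15022 genes tested. Their levels ran from 4.74 RPKM for AQR to 228 RPKM for SNRPB. The Sm genes had a median of 49.1 RPKM, the U1 genes 62.1 and the U5 genes 44.0. The Prp19 group was lowest, with a median of 14.4 RPKM.

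Most members fell when DHX15 was depleted. With shDHX15-1, 31 of 47 fell and 9 rose, where 28.9% of the 15022 genes tested fell and 45.4% rose. With shDHX15-2, 29 fell and 6 rose, against 30.1% and 35.6% of the genes tested. For the mean of both hairpins 31 fell and 8 rose, against 30.2% and 42.6%, and the median log2 change of the members was −0.21, against 0.06 for all genes tested. Calls are at a Benjamini-Hochberg adjusted p under 0.05 in limma, and changes are on the log2(RPKM + 1) scale. Both hairpins lowered 28 members, where 20.4% of all genes tested were lower with both. They raised 5 members, SF3B3, DDX42, CDC5L, CRNKL1 and DDX39B, where 28.8% of all genes were higher with both. Members called in opposite directions by the hairpins numbered 0 in limma, at an unadjusted p under 0.05 and in edgeR and DESeq2, where 3.42% of all genes were higher with shDHX15-1 and lower with shDHX15-2 and 2.04% the reverse. The comparisons of both hairpins share the shGFP libraries. Centring each library on its median moved the median of all genes by −0.11 with shDHX15-1 and reduced the members called higher for the mean of both hairpins from 8 to 3 (CDC5L, PRPF4B, SF3B1, SF3B3 and XAB2 lost their calls), and edgeR and DESeq2 on recovered reads each called 4 higher. The counts of members that fell stayed within 1.5 times under those settings.

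**Figure D1:**
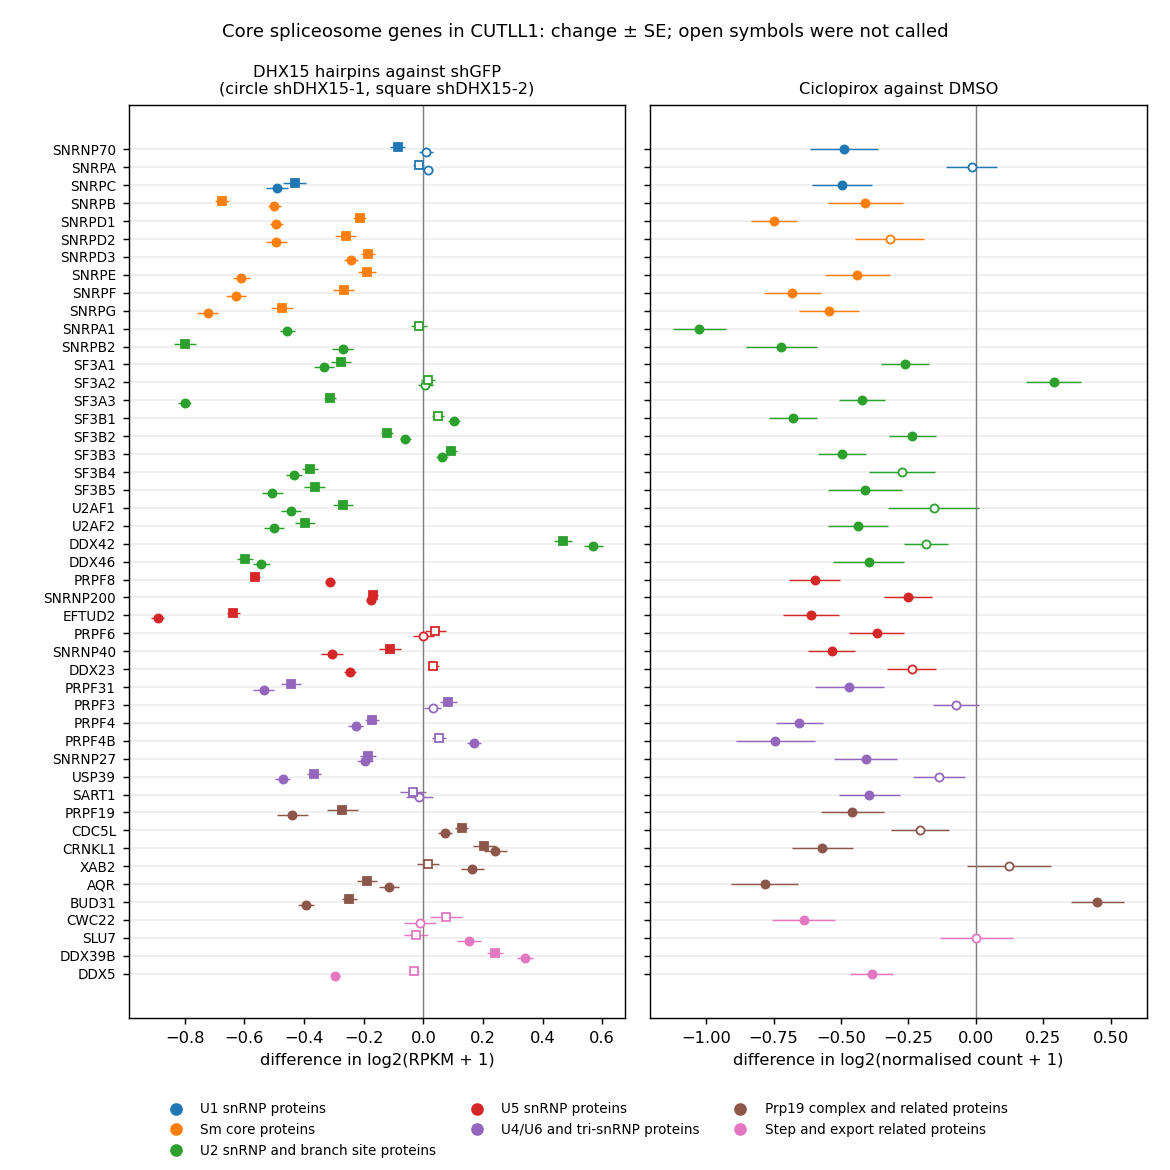
Difference (± SE) of every member from its control, coloured by role, with both DHX15 hairpins on the left (log2(RPKM + 1)) and ciclopirox on the right (log2(normalised count + 1)); filled symbols passed the adjusted p of 0.05. All 7 Sm genes lie left of 0 with both hairpins, and DDX42 lies farthest to the right.

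The Sm proteins form the ring that U1, U2, U4 and U5 snRNA each carry, so they serve every major snRNP. All 7 Sm genes fell with both hairpins. SNRPG, the gene of the G subunit, read 47.5, 49.2 and 47.4 RPKM with shGFP, 27.1, 28.7 and 30.3 with shDHX15-1 and 34.3, 34.9 and 33.7 with shDHX15-2. No library with a DHX15 hairpin reached the level of any shGFP library. Its log2 change for the mean of both hairpins was −0.60 ± 0.03 (SE; limma adjusted p = 3.11e-07), the largest fall of the group. SNRPB, the gene of the B and B′ subunits, read 229, 233 and 221 RPKM with shGFP, 162, 162 and 158 with shDHX15-1 and 142, 141 and 144 with shDHX15-2. Here shDHX15-2 was the lower of the pair. The smallest fall was that of SNRPD3, at −0.22 ± 0.02 (SE).

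The hairpins differed in how far they lowered these genes, although DHX15 itself read much the same with both (log2 difference −0.04, limma adjusted p = 0.20). Over all members, 18 were higher and 10 lower with shDHX15-2 than with shDHX15-1, where 23.2% and 37.9% of all genes tested were higher and lower. Among the Sm genes 5 of 7 were higher with shDHX15-2 than with shDHX15-1, SNRPD1, SNRPD2, SNRPE, SNRPF and SNRPG, and SNRPB was lower. SNRPE read 53.8, 54.9 and 52.5 RPKM with shGFP, 34.0, 35.0 and 35.7 with shDHX15-1 and 46.3, 45.9 and 48.8 with shDHX15-2. The 3 groups of libraries did not overlap. The difference between the hairpins was 0.42 ± 0.03 log2 (SE; limma adjusted p = 4.51e-06). With median centring 31 members were higher and 4 lower with shDHX15-2, and with edgeR and with DESeq2 30 and 5, so the split depends on the scaling.

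**Figure D2:**
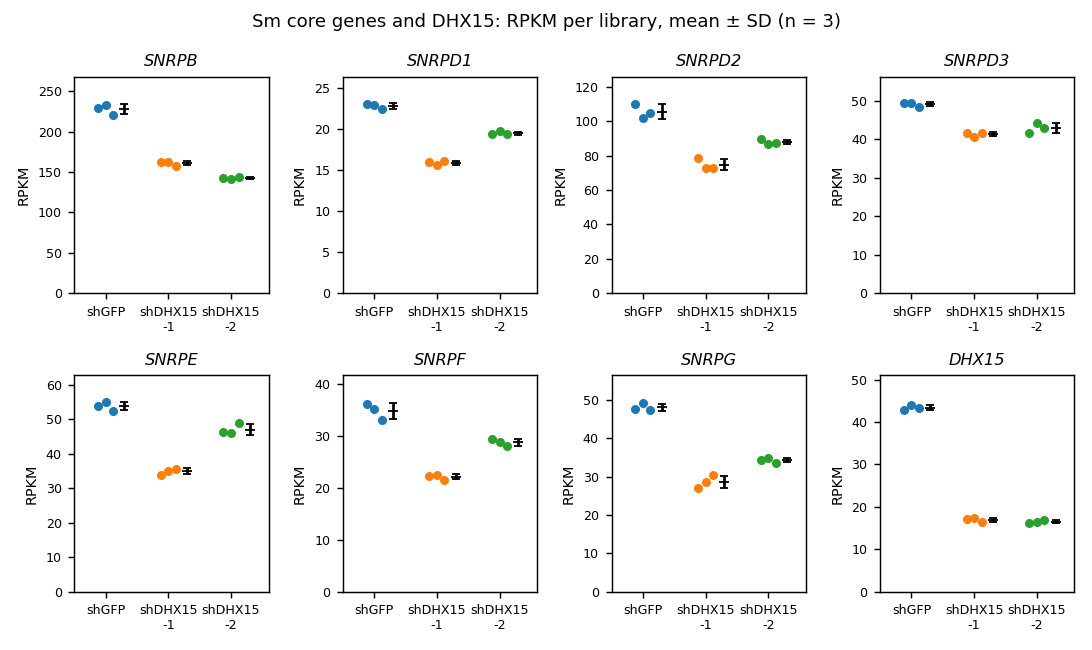
Level of the 7 Sm genes and of DHX15 in RPKM in each of the 9 hairpin libraries (points), with mean ± SD of each group (n = 3) in black. In every Sm panel the shGFP points lie above the points of both DHX15 hairpins.

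The U1 genes differed among themselves. SNRPC, the U1-C protein that helps the snRNP to hold the 5′ splice site, read 83.5, 83.1 and 76.4 RPKM with shGFP, 57.0, 56.1 and 58.8 with shDHX15-1 and 57.9, 61.3 and 60.0 with shDHX15-2. The groups with a DHX15 hairpin lay wholly below shGFP, and the log2 change for their mean was −0.46 ± 0.03 (SE; limma adjusted p = 1.77e-06). SNRNP70 (U1-70K) and SNRPA (U1-A) changed by −0.04 and 0.00 log2 and were not called for the mean. SNRNP70 was called with shDHX15-2 alone, at −0.09 log2.

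In the U2 and branch site group 10 of 14 genes fell and 3 rose for the mean of both hairpins, with a group median of −0.33 log2. The 2 DEAD-box helicases of the group, both of which act on the U2 snRNP or SF3B, went in opposite directions. DDX46, the human Prp5, which remodels U2 at the branch site, read 22.0, 21.5 and 23.1 RPKM with shGFP, 15.0, 15.0 and 14.8 with shDHX15-1 and 14.5, 14.1 and 14.4 with shDHX15-2. Both hairpins lowered it alike, with a log2 change of −0.57 ± 0.02 (SE; limma adjusted p = 8.8e-08). DDX42, a helicase that binds SF3B1, read 21.9, 22.3 and 24.0 RPKM with shGFP, 34.1, 34.7 and 34.0 with shDHX15-1 and 31.6, 32.3 and 31.6 with shDHX15-2. Every library with a DHX15 hairpin was above every shGFP library, and the rise of 0.52 ± 0.03 log2 (SE; limma adjusted p = 2.97e-07) was the largest of the 47 genes.

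SF3A3, a subunit of the SF3A complex, fell by 0.80 log2 with shDHX15-1 and by 0.31 with shDHX15-2. SNRPB2, the U2-B″ protein, went the other way: it fell by 0.27 log2 with shDHX15-1 and by 0.80 with shDHX15-2, and its RPKM was 25.7, 27.5 and 26.9 with shGFP, 22.0, 22.6 and 21.3 with shDHX15-1 and 15.1, 15.4 and 14.3 with shDHX15-2. SNRPA1, its U2-A′ partner, fell by 0.46 log2 with shDHX15-1 and was not called with shDHX15-2 (−0.02 log2). U2AF2, which reads the polypyrimidine tract, fell by 0.45 log2 for the mean. U2AF1, which reads the AG of the 3′ splice site, fell by 0.36, but its counts are uncertain because the near-identical copy U2AF1L5 is also listed. The SF3B genes moved little or down: SF3B4 and SF3B5 fell by 0.41 and 0.44 log2, SF3B2 fell by 0.09, and SF3B1 and SF3B3 each rose by 0.08. The calls of SF3B1 and SF3B3 depend on the scaling, since both were below 0 with shDHX15-1 after median centring.

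Of the U5 genes 5 of 6 fell for the mean of both hairpins. EFTUD2, the GTPase of the U5 snRNP, had the largest fall of all members for that mean, from 19.5, 19.7 and 19.5 RPKM with shGFP to 10.3, 10.1 and 9.94 with shDHX15-1 and 12.04, 12.2 and 12.4 with shDHX15-2. The groups did not overlap, and the log2 change for the mean was −0.76 ± 0.02 (SE; limma adjusted p = 3.67e-09). PRPF8, the scaffold of the catalytic core, read 60.6, 61.8 and 61.3 RPKM with shGFP, 48.9, 49.5 and 48.8 with shDHX15-1 and 40.9, 40.9 and 41.5 with shDHX15-2. It fell further with shDHX15-2, by 0.25 ± 0.02 log2 (SE; limma adjusted p = 3.38e-06). SNRNP200, the helicase that unwinds U4/U6, fell by 0.17 log2, SNRNP40 by 0.21 and DDX23 by 0.11, the last with shDHX15-1 alone (−0.24 ± 0.02 log2, SE, against 0.03 with shDHX15-2). PRPF6 was not called (0.02 log2).

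**Figure D3:**
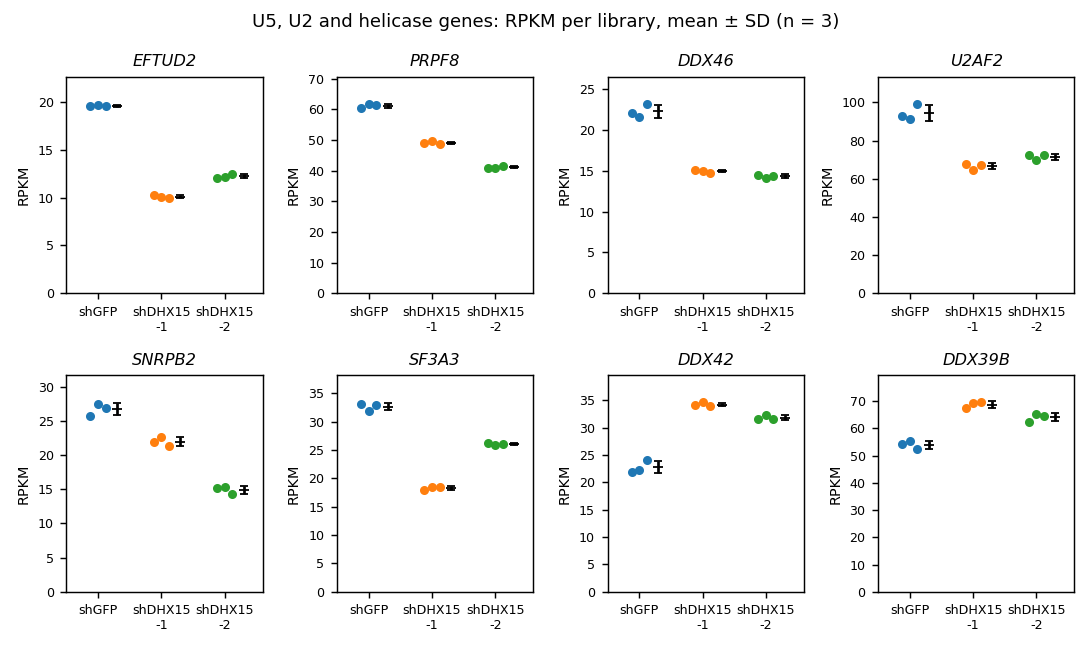
Level in RPKM of 8 members of the U5, U2 and helicase or export groups in each of the 9 hairpin libraries (points), with mean ± SD of each group (n = 3) in black. EFTUD2, PRPF8, DDX46, U2AF2, SNRPB2 and SF3A3 lie below shGFP with both hairpins, and DDX42 and DDX39B above it.

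Of the tri-snRNP genes 4 of 7 fell and 1 rose. PRPF31, which binds the U4 snRNP, read 32.2, 30.7 and 30.8 RPKM with shGFP, 21.8, 20.5 and 21.4 with shDHX15-1 and 23.2, 23.1 and 21.8 with shDHX15-2. Its log2 change for the mean was −0.49 ± 0.03 (SE; limma adjusted p = 6.58e-07), and no library with a DHX15 hairpin reached shGFP. USP39 fell by 0.42 log2, PRPF4 by 0.20 and SNRNP27 by 0.19. PRPF4B, a kinase of the tri-snRNP, rose by 0.11 log2 for the mean, from 22.5, 23 and 23.2 RPKM to 25.6, 26.7 and 25.4 with shDHX15-1 and 23.7, 23.9 and 23.7 with shDHX15-2. PRPF3 (0.06 log2) and SART1 (−0.02) were not called.

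The Prp19 group split evenly, with 3 genes lower and 3 higher. PRPF19, the ubiquitin ligase that names the complex, read 83.4, 81.8 and 96.1 RPKM with shGFP, 64.4, 63.3 and 63.6 with shDHX15-1 and 70.3, 71.7 and 73.3 with shDHX15-2, a change of −0.36 ± 0.05 log2 (SE; limma adjusted p = 8.93e-05). The third shGFP library stood above the other two. BUD31 fell by 0.32 log2 and AQR, an RNA helicase of the intron-binding complex, by 0.15. CRNKL1, a scaffold of the complex, rose from 7.54, 8.02 and 7.57 RPKM to 9.40, 9.41 and 9.07 with shDHX15-1 and 8.98, 9.52 and 8.63 with shDHX15-2, which is 0.22 ± 0.03 log2 (SE; limma adjusted p = 0.000238). CDC5L and XAB2 rose by 0.10 and 0.09 log2, both of which lost their call with median centring, edgeR and DESeq2.

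Among the remaining 4 genes DDX39B, the helicase that couples splicing to mRNA export, rose. Its RPKM was 54.4, 55.4 and 52.4 with shGFP, 67.3, 69.2 and 69.8 with shDHX15-1 and 62.4, 65.2 and 64.6 with shDHX15-2, a log2 change of 0.29 ± 0.02 (SE; limma adjusted p = 3.81e-06). DDX5 fell from 204, 206 and 204 RPKM to 165, 168 and 166 with shDHX15-1, and read 199, 199 and 202 with shDHX15-2. The shDHX15-2 libraries lay close to shGFP, and DDX5 was not called with that hairpin (−0.03 log2). CWC22 and SLU7, which act at the catalytic steps, were not called for the mean (0.03 and 0.06 log2).

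A further 78 genes of the pathway were followed as a list, of which 76 were tested in each experiment. For the mean of both hairpins 41 of 76 fell and 18 rose, with a median of −0.11 log2, where 30.2% of all genes tested fell and 42.6% rose. With shDHX15-1 45 fell and 19 rose, and with shDHX15-2 35 and 20. The LSM ring, which binds the end of U6 snRNA, had 6 of 7 lower and 1 higher with shDHX15-1, and 3 lower and 2 higher with shDHX15-2. LSM4 was called in opposite directions by shDHX15-1 and shDHX15-2 (−0.09 and 0.10 log2). So were TGS1 (−0.105 and 0.125), ZNF830 (−0.092 and 0.198) and WBP4 (0.26 and −0.085) of the other lists. The 15 factors that assemble snRNPs had 8 lower and 5 higher with shDHX15-1, and 6 and 5 with shDHX15-2. For the mean of both hairpins the largest falls were in that assembly list: STRAP (−0.91 log2), WDR77 (−0.61) and PRMT5 (−0.57), the last 2 forming the enzyme that methylates Sm proteins. The largest rises were those of COIL (0.47), the scaffold of Cajal bodies, DDX20 (0.36), a helicase of the SMN complex, and RNPC3 (0.35), a protein of the minor spliceosome.

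Ciclopirox lowered most members too. Of 45 tested, 32 fell and 2 rose, where 25.0% of the 16825 genes tested fell and 23.5% rose, and the median log2 change of members was −0.41 on the log2(normalised count + 1) scale, against −0.02 for all genes. SNRPD3 was under the filter on low values, with 2.87 to 7.56 normalised counts per library, although it read 48.4 to 49.5 RPKM with shGFP in the other table. Without DMSO replicate 1 the counts were 32 lower and 3 higher and the median −0.33. SF3B2 was then no longer called, while CDC5L (−0.27) and XAB2 (0.32) were. The log2 changes without it were −0.94 for SNRPA1, −0.72 for SNRPD1, −0.39 for SNRPC, −0.51 for EFTUD2, −0.87 for AQR and −0.72 for CWC22, all still called lower, and 0.50 for BUD31 and 0.38 for SF3A2, both still called higher. Among members called both with and without it, SNRPB (from −0.41 to −0.23) and SF3B5 (from −0.41 to −0.26) moved by over 1.5 times. Some members not called moved as well, such as SNRPD2 from −0.32 to −0.17. Quantile normalisation reduced the members that fell to 17. DHX15 also fell with ciclopirox, by 0.74 log2.

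The largest fall was in the U2 group. SNRPA1 read 5699, 4730 and 4746 normalised counts with DMSO and 2510, 2506 and 2406 with ciclopirox, without overlap, and changed by −1.03 ± 0.10 log2 (SE; limma adjusted p = 1.62e-05). Of that group 10 of 14 fell, among them SNRPB2 (−0.72) and SF3B1 (−0.68), the large scaffold of SF3B. SF3A2 read 4736, 4054 and 3844 with DMSO and 5124, 5439 and 4833 with ciclopirox, a change of 0.29 ± 0.10 log2 (SE; limma adjusted p = 0.0356). For SF3A2 with ciclopirox that call was lost when DMSO replicate 2 or 3 or ciclopirox replicate 1 or 2 was left out (limma adjusted p = 0.119, 0.155, 0.0996 and 0.113). DDX46 read 5792, 7999 and 8011 with DMSO and 5491, 4955 and 5974 with ciclopirox, so that DMSO replicate 1 lay among the treated libraries. Its fall of 0.40 log2 was called, and for DDX46 with ciclopirox the call was lost under quantile normalisation (−0.14) and when 1 of those same libraries was left out (−0.40 to −0.32).

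Of 6 Sm genes tested 5 fell, of which SNRPB (−0.41) lost its call when any ciclopirox library was left out. SNRPD1 fell most, from 5840, 5351 and 5605 normalised counts to 3490, 3221 and 3284, which is −0.75 ± 0.09 log2 (SE; limma adjusted p = 5.41e-05). SNRPD2 was not called, at −0.32 log2. SNRPC of the U1 group read 5863, 4639 and 4662 with DMSO and 3826, 3528 and 3341 with ciclopirox, a change of −0.50 ± 0.11 log2 (SE; limma adjusted p = 0.00363). Of the U5 genes 5 of 6 fell, EFTUD2 again most, from 10343, 8538 and 8351 to 5892, 6387 and 5501 (−0.61 ± 0.105 log2, SE).

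Of the tri-snRNP genes 5 of 7 fell. PRPF4B read 5823, 8280 and 8111 normalised counts with DMSO and 4403, 3759 and 5029 with ciclopirox, and DMSO replicate 1 was nearest to the treated libraries. It changed by −0.74 ± 0.15 log2, and by −0.91 without that library. In the Prp19 group AQR fell from 2400, 2939 and 2804 to 1566, 1376 and 1796 (−0.78 ± 0.12 log2, SE) and BUD31 rose from 2464, 2210 and 2204 to 3330, 3211 and 2867 (0.45 ± 0.10 log2, SE; limma adjusted p = 0.0033). CWC22 fell from 1794, 2157 and 2113 to 1326, 1153 and 1419 (−0.64 ± 0.12 log2, SE), while SLU7, at 0.00 log2, was not called. Of the 76 further pathway genes 44 fell and 2 rose, where 25.0% and 23.5% of all genes tested did, with the largest falls in WDR77 (−1.29), GEMIN5 (−1.24) and STRAP (−1.13), and rises in ZRSR2 (0.30) and BUD13 (0.28).

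The hairpin and ciclopirox experiments have separate controls, so their calls were set side by side. Of 45 members tested in both, 24 fell in both (17.8% of the 10662 genes tested in both did). BUD31 fell with the hairpins and rose with ciclopirox, where 3.12% of all genes did. SF3B1, SF3B3, PRPF4B and CRNKL1 rose with the hairpins and fell with ciclopirox, where 6.43% did. Of those 4 rises only that of CRNKL1 was still called after median centring. Not called with the hairpins, SNRNP70, PRPF6, SART1 and CWC22 fell with ciclopirox (6.26% of all genes did) and SF3A2 rose (4.31%). Members higher in both numbered 0 by the limma calls, where 15.7% of all genes were. A further 5 fell with the hairpins and were not called with ciclopirox (12.1%), 3 rose and were not called (21.4%), and 3 were called in neither (12.9%). SF3B1 read 50.9, 51.3 and 51.7 RPKM with shGFP, 54.0, 56.7 and 54.7 with shDHX15-1 and 52.9, 53.0 and 53.4 with shDHX15-2. SF3B3 read 27.9, 27.7 and 27.1 with shGFP, 28.9, 29.2 and 28.5 with shDHX15-1 and 29.3, 29.95 and 29.2 with shDHX15-2. Both differences are small beside those with ciclopirox, −0.68 and −0.50 log2. Across the 45 members the changes in the 2 experiments had a Pearson correlation of 0.23, and across all 10662 genes 0.44, as a description over genes, which are not independent.

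**Figure D4:**
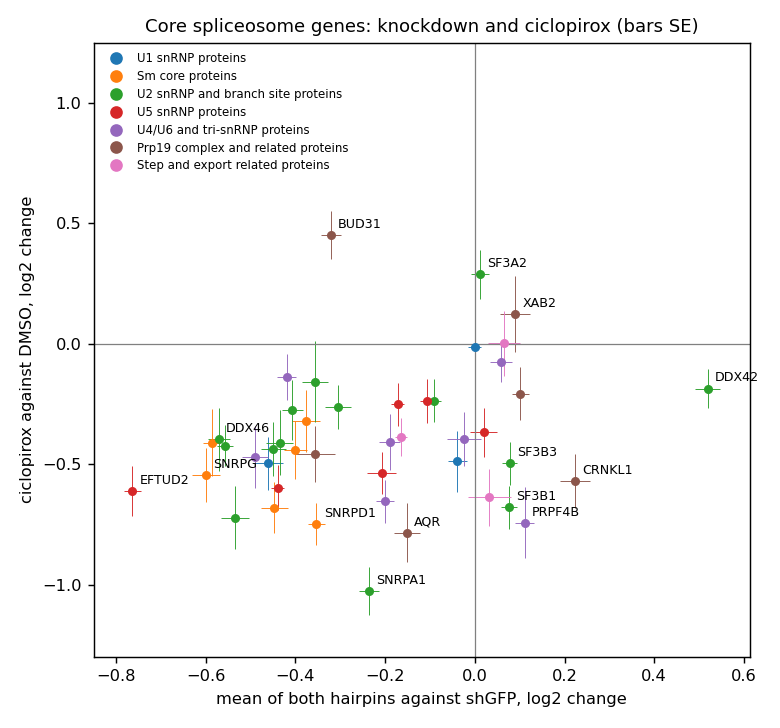
Log2 change of 45 members with the mean of both hairpins (x) and with ciclopirox (y), bars SE, coloured by role. Most points lie in the lower left, BUD31 lies alone in the upper left, and DDX42 lies farthest right.

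Peaks of the DHX15 immunoprecipitation were also looked up on these genes. The list names no build, and its positions were laid on RefSeq GRCh38 spans, which contained 4150 of its 4499 peaks. Of 46 members with a span 10 held a peak, where 24.2% of 11360 genes tested did, so the members lay near the share over all genes, and 8 held one wholly inside the span, where 22.1% did. The 15 member peaks comprised 12 on the strand of the gene and 3 on the other strand, the latter in PRPF31, USP39 and BUD31. Fold enrichments are the authors' values. DDX5 held 3 peaks with fold enrichments of 1.54, 1.62 and 2.01, the last over its start and also over CEP95 (chr17:64506756-64507530), and it was the 1 member with a peak of at least 2-fold, where 4.74% of genes had one. DDX39B held 3, which also lie in the readthrough gene ATP6V1G2-DDX39B, at 1.52, 1.54 (also over SNORD84) and 1.53. SNRNP40 held 2, at 1.501 and 1.77. SNRNP70 and SF3A2 each held 1 long peak, of 6018 bp at 1.77 and 5613 bp at 1.69. SF3A1 held 1 over its start at 1.61, also over CCDC157. The peak at SNRPD3, at 1.66, overlapped the gene by 3 bases and also lay over GUCD1. The antisense peaks were at 1.76 (PRPF31), 1.63 (USP39, also over C2orf68) and 1.80 (BUD31, also over PTCD1 and ATP5MF-PTCD1). Seen against the calls, genes with a peak on their own strand included members that rose (DDX39B), fell (SNRNP40) and were not called for the mean of both hairpins (SNRNP70, SF3A2).

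The mouse thymus gave 9434 flox and 8484 KO barcodes with medians of 3599 and 6083.5 UMIs (counted RNA molecules), and 17 barcode sequences occurred in both libraries. With 1 library per group there is no test, and ratios carry 95% intervals that cover counting error only. Over all barcodes the members took 0.914% of UMIs in flox and 0.933% in KO, and their median log2 ratio of KO over flox was 0.01, against −0.10 for 11861 genes. Past 1.5-fold, 2 of 47 were higher and 1 lower, where 12.9% and 15.1% of genes were. Ddx46 was lower, at 95.5 CPM (UMIs scaled to the total of the library or class) in KO (95% interval 93.3 to 97.7) against 179 in flox (175 to 183), and Sf3b3 was higher, at 114.5 (112 to 117) against 73.5 (71.1 to 75.9). Snrpd1 was higher, at 441 against 292, with a 95% interval of the ratio from 1.48 to 1.539. Dhx15 read 100.3 CPM in KO and 181 in flox.

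The libraries held very different stages, so the genes were also compared within classes of clusters named by markers. DN2-3-like barcodes (early double-negative cells) made up 1.31% of the 8754 flox barcodes kept and 15.9% of the 7211 KO barcodes kept, S phase-like 6.01% and 23.5%, and DP-like (double-positive) 57.5% and 22.7%. The DP-like class was held mostly by clusters 0, 1 and 3 in flox and by cluster 15 in KO, which held 1461 KO and 7 flox barcodes and had no DP marker among its 10 leading genes, so its name rests on less than the others. Snrpd1 was within 1.5-fold in all 6 classes (for example 119 CPM in KO and 120 in flox among DP-like barcodes), and was 697 and 698 in the S phase-like class, which is larger in KO.

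Ddx46 was lower in KO in 5 of 6 classes past 1.5-fold. Its log2 ratios were −0.98 in DP-like, −0.96 in S phase-like, −1.33 in G2 and mitosis-like, −1.08 in TCR-signalled-like and −1.20 in mature SP-like barcodes. In DN2-3-like barcodes it was −0.22, with 132 CPM in KO (126 to 139) and 154 in flox (135 to 176). Dhx15 was itself hardly lower there, with a ratio of 0.90 (0.779 to 1.04), against 0.411 (0.39 to 0.434) in S phase-like and 0.707 (0.652 to 0.766) in DP-like barcodes. Without cluster 15 the Ddx46 value in DP-like barcodes was −0.88, and that of Dhx15 −0.24.

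U2af2 was past 1.5-fold lower in the S phase-like (−0.63), G2 and mitosis-like (−0.84) and TCR-signalled-like classes (−0.62), and −0.58 in DP-like barcodes, which became −0.17 without cluster 15. Sf3b3 was past 1.5-fold higher in DP-like (0.70), G2 and mitosis-like (0.62), TCR-signalled-like (0.92) and mature SP-like barcodes (0.89), 0.46 in S phase-like and −0.11 in DN2-3-like. Prpf8 was past 1.5-fold lower in TCR-signalled-like (−0.66) and mature SP-like barcodes (−0.67). Eftud2, whose human gene fell most for the mean of both hairpins, was at −0.47 in DN2-3-like and 0.70 in mature SP-like barcodes, with 57 UMIs in the latter KO class. Usp39 (−0.66, G2 and mitosis-like) and Prpf4 (0.61, TCR-signalled-like) passed 1.5-fold in 1 class each. In the DN2-3-like class all 47 members were within 1.5-fold, where 6.52% of 8570 genes were higher and 3.16% lower. Of all genes measured, 5.10% were lower and 5.26% higher in S phase-like, 7.98% and 6.32% in G2 and mitosis-like, 5.53% and 10.4% in DP-like, 8.83% and 5.21% in TCR-signalled-like, and 9.79% and 9.89% in mature SP-like barcodes. Ddx42, whose human gene rose most with the hairpins, was within 1.5-fold in all classes.

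**Figure D5:**
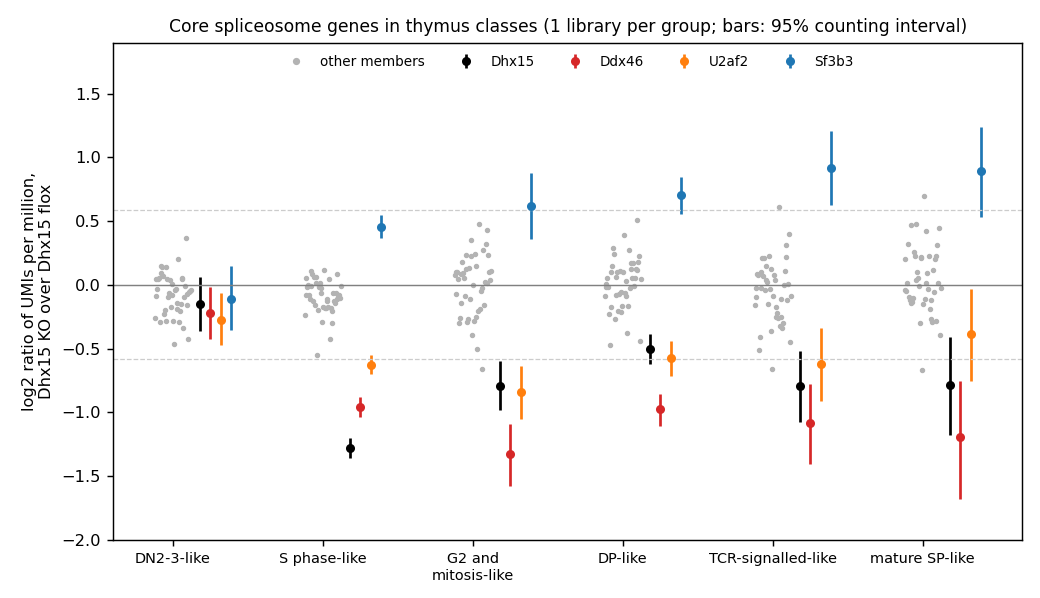
Log2 ratio of UMIs scaled to the total of the class in each library, Dhx15 KO over Dhx15 flox, in 6 classes of thymus barcodes. Coloured points with 95% counting intervals are Dhx15, Ddx46, U2af2 and Sf3b3, grey points the other members, and dashed lines mark 1.5-fold. Ddx46 lies below the lower line in 5 classes and at −0.22, between the lines, in the DN2-3-like class.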

How the data were processed

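The members, role groups and further lists were chosen with earlier results of these data known. The hairpin table holds RPKM values as deposited by the authors, from which whole reads were recovered for 19747 of 19848 genes (99.995% of values above 0 whole within 1e-05). The ciclopirox table holds normalised counts, a signal that equals gene counts divided by a size factor, as deposited by the authors; 100% of values were whole reads within 0.01. Its log2 fold change and p-value columns are the authors' deposited values and were not used as a test. The authors' deposited peak list gives a fold enrichment ratio, p-value, FDR and score per peak; the sources used here name no caller. Each thymus matrix holds counts of UMIs, written by Cell Ranger (6.0.1) per the file headers. Per the submitters' processing notes, which give no roles, the tools include Scanpy 1.7.1, Cell Ranger 6.0.2, DESeq, DESeq2 1.32.0, STAR (2.7.5c, 2.4.1.7) and FastQC 0.11.9, with hg19, hg38 and mm10. Neither strand setting nor gene models are stated there; Sm genes have many pseudogenes that could share reads.

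The test was limma 3.58.1 with a trended prior in R 4.3.3. For the hairpins it took log2(RPKM + 1) of all 9 libraries for the 15022 genes that reached 1 RPKM in 3 or more of them, and for ciclopirox log2(normalised count + 1) of 6 libraries for the 16825 genes that reached 10 in 3 or more. Tests were two-sided, with Benjamini-Hochberg adjustment over all genes tested. edgeR 4.0.16 and DESeq2 1.42.0 ran on recovered reads as alternatives. Thymus barcodes with at least 1000 UMIs and under 10% mitochondrial UMIs were clustered with Scanpy 1.11.5 (2000 variable genes, 30 components, 15 neighbours, resolution 1.0) and named by markers. No doublet caller was run. The alternative without the 5% of barcodes with most UMIs was cut over each whole library and is no check for doublets. It took S phase-like flox barcodes from 526 to 227 and left the DP-like class unchanged, at 5034 flox and 1639 KO barcodes. Genes with at least 100 UMIs over both libraries were compared, with exact Poisson-based intervals. Fits were tested on simulated data. There 27% of 1.25-fold and 89.5% of 1.5-fold changes were called in the right direction for the mean of both hairpins (15846 genes). For ciclopirox (15430 genes) the shares were 20.9% and 71.6%. The simulated spread was the same for all genes and wider than that of the members among the real hairpin libraries. Smaller changes were called there, such as AQR (−0.15 log2) and SNRNP200 (−0.17), so the simulated shares do not describe the real hairpin test. Values per library are given for the largest fall and rise of each role in each experiment, opposite calls, members with a peak (by peak) and members past 1.5-fold over all thymus barcodes. Members past 1.5-fold in a thymus class are given mostly as log2 ratios. DDX46 with ciclopirox, SF3A3, SNRPB2, SNRPB, SNRPE, PRPF8, U2AF1, U2AF2, Ddx42 and Snrpd1 within classes were added after their values were seen. Number of columns of per-sample values left out as unmapped: 0.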

Additional observations from a re-analysis of the deposited data

How the results depend on the processing

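Counts of members that fell stayed within 1.5 times in all hairpin settings for each hairpin and their mean; the exceptions follow. Members higher went to 4 with shDHX15-1 under median centring, edgeR and DESeq2 each, to 3, 4 and 4 for the mean of both hairpins, and to 12 with shDHX15-2 under quantile normalisation. Between hairpins the counts were 31 higher and 4 lower with median centring, and 30 and 5 with edgeR and with DESeq2. With ciclopirox 1 member was higher under median centring and 17 lower under quantile normalisation. The median log2 change of members with shDHX15-1 was −0.28 at a pseudocount of 0.1, −0.38 with median centring, −0.21 with quantile normalisation, −0.38 with edgeR and −0.38 with DESeq2; with shDHX15-2 −0.19, −0.23, −0.11, −0.21 and −0.22; for the mean −0.22, −0.28, −0.19, −0.28 and −0.29; between hairpins 0.12 with median centring, 0.03 with quantile normalisation, 0.13 with edgeR and 0.125 with DESeq2; with ciclopirox −0.50 with median centring and −0.20 with quantile normalisation. Leaving out each library gave medians of −0.30 to −0.25 with shDHX15-1, −0.19 to −0.17 with shDHX15-2, −0.22 to −0.20 for the mean, 0.048 to 0.058 between hairpins and −0.49 to −0.33 with ciclopirox, where 1 to 3 members were higher and 25 to 32 lower.

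Small changes reversed sign. Median centring gave PRPF3 with shDHX15-1 at −0.077, and for that hairpin CDC5L −0.035, SF3A2 −0.101, SF3B1 −0.005, SF3B3 −0.046, SNRNP70 −0.099 and SNRPA −0.091. For CDC5L with shDHX15-1, then SF3A2, SF3B3, SNRNP70 and SNRPA, edgeR gave −0.016, −0.086, −0.028, −0.084 and −0.076, and DESeq2 −0.023, −0.093, −0.036, −0.091 and −0.083. Quantile normalisation gave PRPF6 0.096 and SF3B2 0.002, and with shDHX15-2 SNRNP70 0.009 and SNRPA 0.072. For the mean, median centring gave SF3A2 −0.062 and SNRPA −0.073, edgeR SNRPA −0.057, DESeq2 SF3A2 −0.055 and SNRPA −0.067, and quantile normalisation SNRNP70 0.073. Between hairpins SF3B2 was 0.006 with median centring, 0.007 with edgeR and 0.003 with DESeq2, and with ciclopirox quantile normalisation gave SF3B2 0.068. The cause was not tested.

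In the thymus, without mitochondrial and ribosomal protein genes 4 members were higher, and at the lower fold limit tried there were 6 higher and 6 lower. Without the 5% of barcodes with most UMIs 1 was lower in DN2-3-like and 1 higher and 4 lower in S phase-like barcodes; at another cluster resolution 1 was lower in S phase-like and 2 in DP-like barcodes, and G2 and mitosis-like had no cluster of its own. DP-like without cluster 15 was chosen after seeing the data. With peaks of at least 2-fold 1 member held a peak; the list names no genes, so naming by the list was not run, and the mean of both hairpins needs all 3 groups, so a fit on fewer groups was not run for it. Deviations of same-numbered libraries had correlations of −0.001 to 0.095 (hairpins) and −0.108 to 0.163 (ciclopirox). Those of libraries with different numbers ran from −0.123 to 0.047 and from −0.289 to 0.182. What the numbers stand for was not tested. With a replicate block 31 members fell and 8 rose for the mean of both hairpins. The counts were 31 and 9 with shDHX15-1, 29 and 5 with shDHX15-2, and 33 and 2 with ciclopirox. The thymus ratios are limited by 1 library per group.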
